A study of Mus musculus with 6 samples.

Results

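The intergenic sites were the 554 listed m5C positions whose base lay in no gene body of the comprehensive GENCODE vM21 annotation, on either strand. They made up 50.7% (95% Wilson interval, 47.8 to 53.7) of the 1092 positions in the list. The other 538 sites lay in a gene body, 230 on the sense strand of a gene and 308 only antisense to one. The list came from bisulfite sequencing of amplified repeat RNAs in the chromatin-associated RNA (caRNA) of mouse embryonic stem cells (mES cells), with 3 libraries from wild-type (WT) cells and 3 from cells without TET2 (Tet2 KO). Cells of both genotypes grew in serum and LIF with the inhibitors CHIR99021 and PD0325901, and feeder cells had been cleared by passaging. Both lines came from another laboratory, and how the Tet2 deletion was made and whether replicates were separate cultures are not given in the sources used here. The series has 1 list of sites, which gives a chromosome, position and strand, with no methylation level, coverage, library or genotype. Tet2 KO and WT were therefore not compared, the depth behind a site is unknown, and a listed site is a position called by the authors' pipeline rather than a level. Every interval below covers the counting of sites only. Sites in copies of a repeat are not independent, and no difference between shares was tested.

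In bisulfite treatment an unmethylated cytosine is converted and read as T, while 5-methylcytosine (m5C) is still read as C. TET2 oxidizes m5C, in DNA and in RNA, and NSUN-family enzymes such as NSUN2 and NSUN6 place it on RNA. The repeats amplified here are mobile elements: IAPEz, MERVL, ETnERV, RLTR10 and MTA carry or derive from long terminal repeats (LTRs) of endogenous retroviruses, the L1Md elements are long interspersed elements (LINE-1), and B1 and B2 are short interspersed elements transcribed by RNA polymerase III. Nearly identical copies of each lie throughout the mouse genome, in introns as well as between genes.

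Each amplicon was made with a reverse transcription (RT) primer and a p5 primer. The RT primer consists of an adapter, 7 random bases that serve as a molecular identifier, and a stretch complementary to the converted repeat RNA. In reads of that amplicon the bases over either primer are those of the primer. The 7 RNA bases just 3′ of the RT primer's target are not copied into the cDNA, where the 7 random bases of the primer stand instead. The study's methods take these 7 bases off the second read before alignment, in which case they are in no aligned read, so why positions there are listed is not known from the list and was not tested. The RNA's own bases are read only between the primers. Matching the study's 20 primer pairs to the converted sequence around each site therefore gives a site 1 of 4 places. They are the p5 primer, the stretch between the primers, the RT primer, or the positions opposite the random bases, written +1 to +7 from the last RNA base under the RT primer (negative numbers run upstream).

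A small set of sequences carries the result, and the capital marks the base in question, which is the listed cytosine in each genomic or RNA sequence. The first is the IAPEz-int RT primer with its only G, followed by its target on the converted RNA and by the unconverted genomic sequence of 1 listed site (GRCm38, chr1:17958148-17958170, plus strand, 9712 nt from the pseudogene Gm7690). Next come 2 B2 sequences from the 3′ end of the RT primer target into the random-base positions, 1 with the site at +2 (chr1:58609771-58609793, minus strand) and 1 at +4 (chr1:13030887-13030909, plus strand). The last 4 are sites that the best primer pair placed between the primers, where the RNA's own base is read. The L1MdA site among them lies at -82, which also falls under a p5 primer match, so its place is uncertain.
IAPEz-int RT primer: ttacaaaccaactcaacaaGttc
IAPEz-int primer target, converted RNA: gaaCttgttgagttggtttgtaa
IAPEz-int listed site, genome: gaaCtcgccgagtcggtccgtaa
B2_Mm1a listed site at +2: cccgtaacgagatctgaCggcct
B2_Mm1a listed site at +4: cctgtaatgagatctgattCcct
B1_Mm listed site between the primers: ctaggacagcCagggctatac
MTA listed site between the primers: ttcctccccaCttgcttcttg
L1MdA listed site between the primers: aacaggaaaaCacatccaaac
B2_Mm1t listed site between the primers: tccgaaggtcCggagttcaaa

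The coordinates and the repeat sequence of the sites were checked against the reference. All 554 lay on a C of the listed strand when the coordinate was read as 1-based (99.3 to 100%), against 78 (14.1%) when read as 0-based. Soft-masked repeat sequence held 551 of them (99.5%, 98.4 to 99.8), beside 535 of 538 sites in genes (99.4%, 98.4 to 99.8). An RT primer target with at most 5 mismatches lay within 300 nt of 551 sites, and in 504 sites it matched without a mismatch. A complete primer pair spanned 549 sites. By the repeats the primers were named for, B2 elements held 231 sites (41.7%, 37.7 to 45.8), IAPEz-int 166 (30.0%, 26.3 to 33.9) and L1MdA 64 (11.6%, 9.15 to 14.5). MTA held 27 sites, L1MdTf 22, B1_Mm 15, MERVL 7, and RLTR10 and L1MdV 6 each. L1MdGf held 3 sites, and L1MdF and ETnERV-int 1 each. The MMETn-int, MTC and MuLV-int amplicons held 0 sites outside genes.

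The repeat makeup differed in size from that of the sites in genes. B2 elements made up 74.2% (70.3 to 77.7) of the sites in genes, against 41.7% outside. IAPEz-int made up 9.85% (7.61 to 12.7) in genes, against 30.0% outside, and L1MdA 2.79% (1.70 to 4.55), against 11.6%. The copies that the primers could amplify were spread in a like way. Of the IAPEz-int sites 75.8% (69.7 to 81.0) lay outside genes, beside 73.8% of the 1357 genomic loci predicted for the second IAPEz-int primer pair with at most 2 mismatches in each primer. Of the L1MdA sites 81.0% (71.0 to 88.1) lay outside genes, beside 77.3% of 15795 loci. For MTA 27 of 45 sites lay outside genes (45.5 to 73.0%), beside 63.0% of 9768 loci, and for B1_Mm 44.1% (28.9 to 60.5), beside 44.8% of 56495 loci. For B2 36.7% of the sites (33.0 to 40.5) lay outside genes, which was below the 42.6 to 43.6% of loci of the 3 B2 primer pairs.

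Most intergenic sites were placed in a primer or opposite the random bases. The RT primer held 181 sites (32.7%, 28.9 to 36.7), the positions opposite the random bases 187 (33.8%, 29.9 to 37.8), and the p5 primer 31 (5.60%, 3.97 to 7.83). Between the primers lay 135 sites (24.4%, 21 to 28.1). In 15 sites equally good primer pairs gave different places, and 5 had no primer pair. When the place was instead taken from the best RT primer match alone, 33.9% of sites lay inside an RT primer and 21.7% between the primers. That simpler placement chose among overlapping B2 and tandem L1MdTf amplicons without asking whether the amplicon held the site, so the pair placement is used from here on. In genes, the RT primer held 20.1% of sites (16.9 to 23.7), the random-base positions 58.0% (53.8 to 62.1) and the stretch between the primers 15.8% (13 to 19.1).

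**Figure D1:**
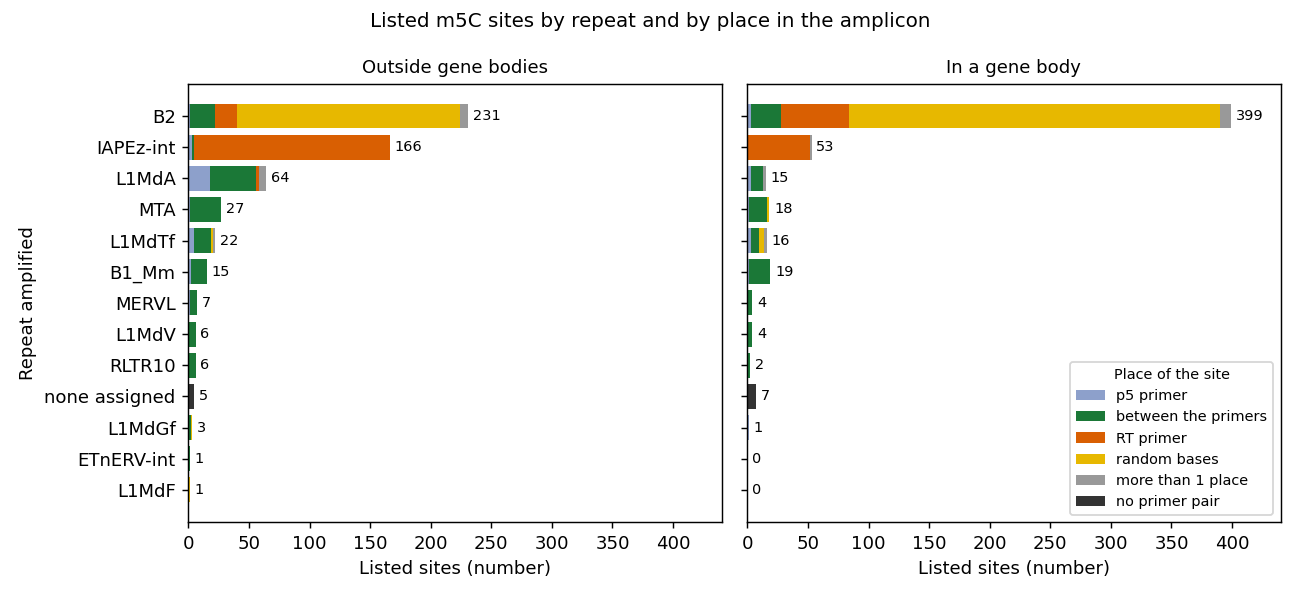
Number of listed sites for each amplified repeat, outside gene bodies (left) and in a gene body (right), coloured by the place of the site in the amplicon; the number at the end of each bar is its total. Outside genes the 166 IAPEz-int sites lay almost wholly in the RT primer and the 231 B2 sites mostly at the random bases, while sites between the primers led in L1MdA, MTA, L1MdTf and B1_Mm.

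The IAPEz-int sites shared a single base. Of the 165 sites of the second IAPEz-int amplicon, 161 (97.6%, 93.9 to 99.1) lay at the C that pairs with the only G of its RT primer, base 20 of the primer and base 4 of the target shown above. These were 29.1% (25.4 to 33.0) of all intergenic sites and 161 of the 181 sites inside an RT primer. Only 1 of the 20 RT primers carried a G in its repeat-specific part, and 0 of the 20 p5 primers carried a C. Every cDNA made with this primer therefore reads as C at this base, whatever the RNA carried. In genes the same base accounted for 52 sites (9.67%, 7.45 to 12.5). No other primer pair within 5 mismatches put any of the 161 sites elsewhere.

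Copies of the element differed at this base. Over the 1357 predicted loci it was A in 54.5% and C in 45.4%, and only a C can be listed. Outside genes 472 loci had the C and 159 of them were listed (33.7%, 29.6 to 38.1). In genes 52 of 144 were (36.1%, 28.7 to 44.2). The rest of the amplicon was almost empty: outside genes 1 of 14812 cytosines between its primers was listed, 0 of 749 opposite the random bases and 3 of 4057 in the p5 primer. The other IAPEz-int amplicon, whose RT primer has no G, had 2 of 51463 cytosines between the primers listed and 0 of 12231 in the RT primer. Of the 166 IAPEz-int sites, 23 (13.9%, 9.41 to 19.9) had a converted window, of 75 nt on each side of the site, found once in the genome. This window is longer than most amplicons and so holds sequence that no read covers. The window of the listed site shown above occurred 27 times.

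The 161 sites fell into 8 different 21-nt contexts. The 5 commonest, shown because they differ only at a few bases of the repeat while the C in capitals stays, held 42, 39, 33, 26 and 18 sites.
IAPEz-int, 42 sites: gattaaagaaCtcgccgagtc
IAPEz-int, 39 sites: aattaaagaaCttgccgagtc
IAPEz-int, 33 sites: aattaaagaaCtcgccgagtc
IAPEz-int, 26 sites: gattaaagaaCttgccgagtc
IAPEz-int, 18 sites: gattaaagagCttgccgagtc

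The B2 sites gathered just past the RT primers. Of 231 B2 sites, 184 lay opposite the random bases, 147 of them in the B2_Mm1a amplicon, 23 in B2_Mm2 and 14 in B2_Mm1t. In B2_Mm1a, 80 sites lay at +2 and 64 at +4, with 3 at +1. The B2_Mm2 amplicon followed the same pattern, with 13 sites at +2 and 8 at +4. These positions are cytosines in most copies: over the loci, +2 of B2_Mm1a was C in 81.4% and +4 in 96.4%, and in B2_Mm2 these shares were 92.9% and 91.7%. B2_Mm1t was different, with 11 sites at +1, where only 1.10% of loci had a C and 95.3% had an A. In all, 169 of the 187 random-base sites (90.4%, 85.3 to 93.8) lay where C was the commonest base. Only a cytosine can be listed, and the share of all random-base cytosines at such positions is not given here. The count is therefore no result about the members. In 54 runs, sites at +2 and +4 of the same copy were both listed.

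**Figure D2:**
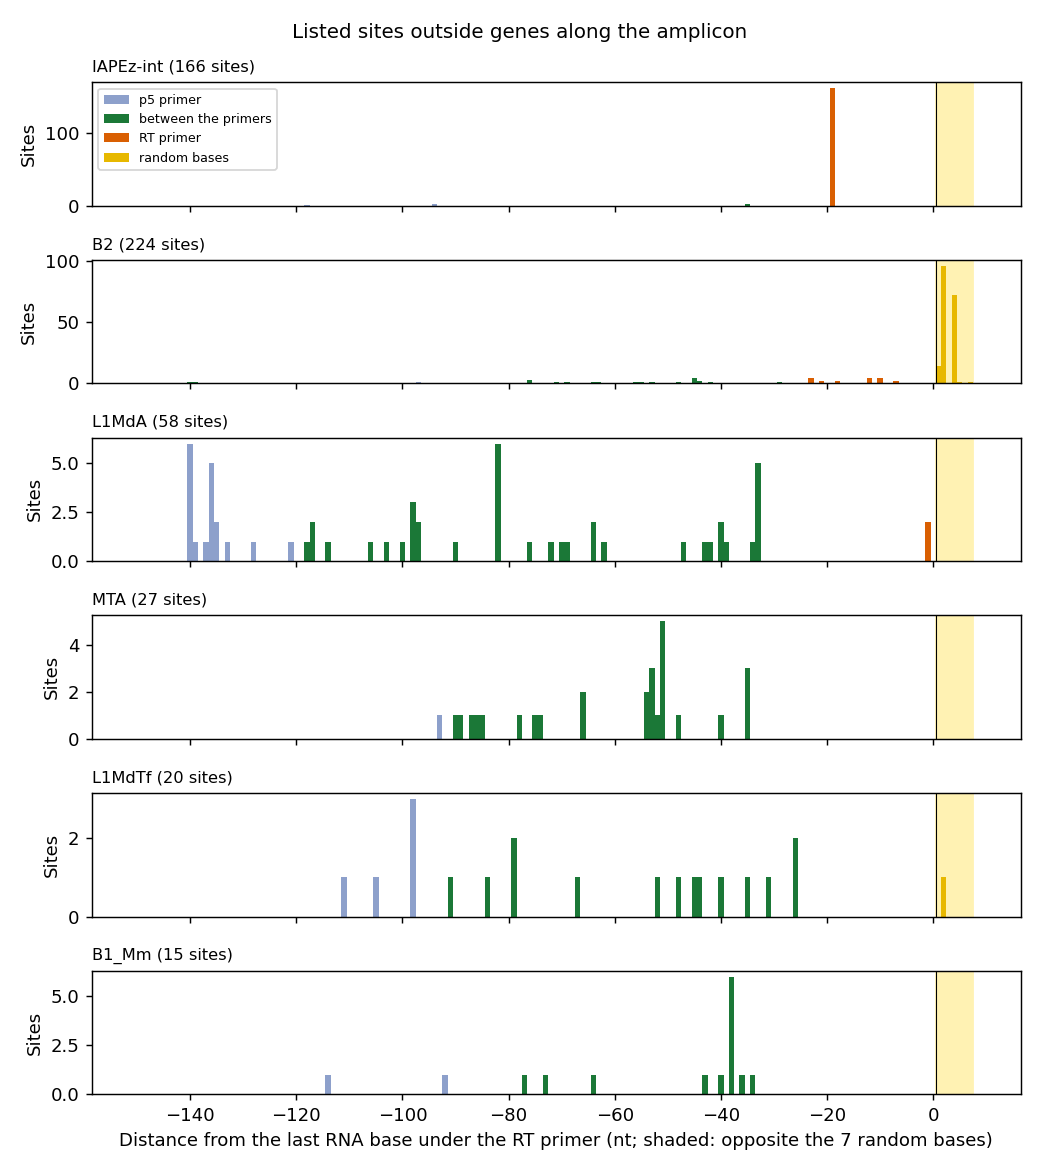
Number of listed sites outside genes at each distance (nt) from the last RNA base under the RT primer, for 6 repeats, coloured by place; the shaded band marks the positions opposite the 7 random bases, and sites with more than 1 place are left out. IAPEz-int had 1 tall bar inside the RT primer and B2 its tallest bars at +2 and +4, whereas L1MdA, MTA, L1MdTf and B1_Mm sites were spread over the stretch upstream.

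The other B2 sites near primers fell on the same bases. All 18 B2 sites placed inside the RT primer of B2_Mm1t or B2_Mm1a lay at -12, -10 or -7 and at -23, -21 or -18 of those amplicons. Under the B2_Mm2 primer pair, whose target overlaps theirs upstream, each of the 18 lay at +2, +4 or +7, opposite its random bases. Counted there, the random-base positions held 205 sites (37.0%, 33.1 to 41.1). Conversely, each of the 23 random-base sites of B2_Mm2 had another pair within 5 mismatches that gave it a different place, whereas 143 of the 147 sites of B2_Mm1a (97.3%, 93.2 to 98.9) had no other place. The B2 contexts were widely shared, as these sequences with the listed C in capitals show.
B2_Mm1a at +4, 31 sites: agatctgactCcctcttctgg
B2_Mm1a at +2, 24 sites: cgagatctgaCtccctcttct
B2_Mm1a at +2, 24 sites: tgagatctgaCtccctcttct
B2_Mm2 at +2, 7 sites: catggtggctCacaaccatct

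Outside genes the B2_Mm1a loci had 24209 cytosines opposite the random bases, of which 149 were listed (0.615%, 0.524 to 0.722). Between the primers 12 of 96791 were listed (0.0124%, 0.00709 to 0.0217), and these intervals do not overlap. At +2, 81 of 5298 loci with a C outside genes were listed (1.53%, 1.23 to 1.90), beside 133 of 6833 in genes (1.95%, 1.64 to 2.30). At +4 these numbers were 65 of 6270 (1.04%, 0.814 to 1.32) and 107 of 8090 (1.32%, 1.10 to 1.60). A base can belong to loci of more than 1 B2 amplicon and is then counted in each. Of the B2 sites 165 (71.4%, 65.3 to 76.9) had a window found once, but the median span of the B2 amplicons was 86 to 100 nt, and for sites past the RT primer much of the window was never read. It therefore does not show that a B2 read could be placed at 1 locus.

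**Figure D3:**
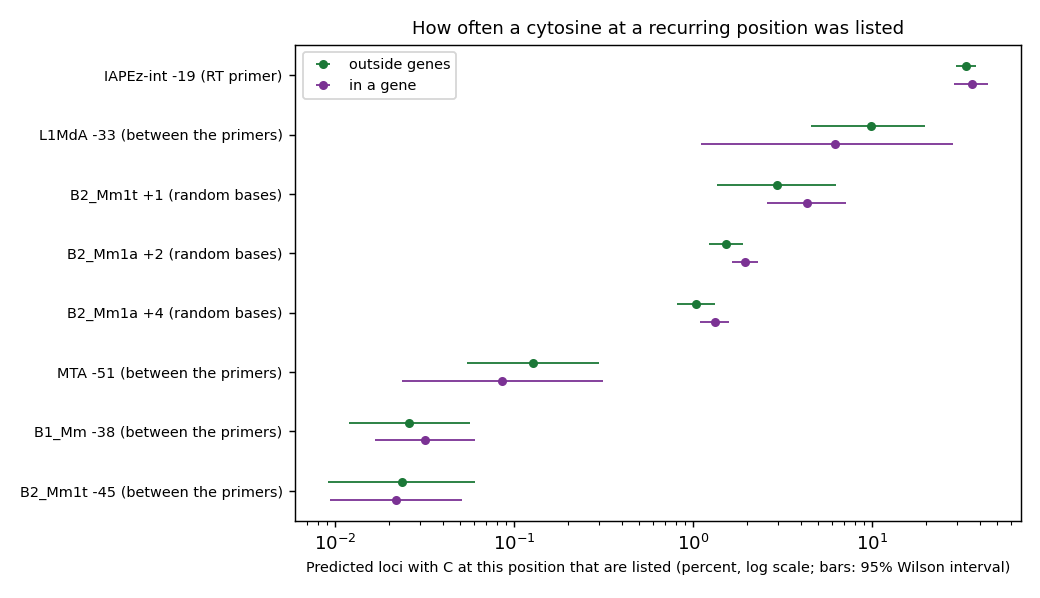
Share of predicted loci with a C at a recurring position that were listed (percent, log scale), outside genes and in a gene. Bars are 95% Wilson intervals. Each row names the repeat, the distance from the RT primer's last base (nt) and the place. Drawn are positions with 4 or more sites outside genes, without p5 primer positions, B2_Mm2, B2 sites inside an RT primer and -82 of L1MdA. The place of these left-out B2 and L1MdA positions depends on the pair chosen. The place of -33 of L1MdA, which is drawn, is uncertain too. The share was 33.7% at the IAPEz-int primer base and 1.53% at +2 of B2_Mm1a, and at each position drawn the 2 intervals overlapped.

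The p5 primer held 31 sites, of which 18 were in L1MdA. The primer's own base at these sites was A in 20, T in 6 and G in 5, and at the 20 RT primer sites outside IAPEz-int it was T on the RNA's strand. None of these primer bases is a C, so the C called at these sites differs from the designed base of the primer they were placed in. How it was read was not tested. At most p5 primer sites other copies did not have a C either: A was the commonest base at 22 of the 31 sites (71.0%, 53.4 to 83.9) and C at 6. In L1MdA, 6 sites lay at -140 and 5 at -136, where 0.985% and 0.679% of loci had a C. Of the 18 L1MdA sites, 10 had no other place under any pair within 5 mismatches.

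Between the primers, 135 sites remained, and LINE-1 and LTR elements led. L1MdA held 38, MTA 26, B2 21, L1MdTf 14 and B1_Mm 13. L1MdV, MERVL and RLTR10 held 6 each, IAPEz-int and L1MdGf 2 each, and ETnERV-int 1. Of all listed sites between the primers, 61.4% (54.8 to 67.6) were intergenic, against 37.5% (33.3 to 41.8) of those opposite the random bases. The share was 62.6% (56.9 to 68.0) in the RT primer and 72.1% (57.3 to 83.3) in the p5 primer. Within B2 it was 45.7% (32.2 to 59.8) between the primers and 37.6% (33.4 to 41.9) opposite the random bases, with overlapping intervals. The sites between the primers had 114 contexts among 135 sites (84.4%, 77.4 to 89.6) and 5 sites in the commonest. For comparison, 42 of the 181 RT primer sites and 31 of the 187 random-base sites shared the commonest context of their place. A window found once belonged to 100 of the 135 (74.1%, 66.1 to 80.7), beside 132 of 187 opposite the random bases (70.6%, 63.7 to 76.7), 16 of 31 in the p5 primer (51.6%, 34.8 to 68.0) and 32 of 181 in the RT primer (17.7%, 12.8 to 23.9). Under every pair within 5 mismatches, 85 of the 135 kept this as their only place. In L1MdA 7 of 38 did.

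Per cytosine, listed sites between the primers were rare both outside genes and in them. In MTA, an LTR class, 26 of 86599 cytosines outside genes were listed (0.0300%, 0.0205 to 0.0440) and 15 of 50990 in genes (0.0294%, 0.0178 to 0.0485). In L1MdA it was 34 of 126495 (0.0269%, 0.0192 to 0.0376) and 10 of 38000 (0.0263%, 0.0143 to 0.0484). In the short element B2_Mm1t it was 22 of 334072 outside genes (0.00659%, 0.00435 to 0.00997) and 30 of 445079 in them (0.00674%, 0.00472 to 0.00962). In B1_Mm it was 13 of 380320 (0.00342%, 0.00200 to 0.00585) and 18 of 468138 (0.00385%, 0.00243 to 0.00608). In each of these 4 amplicons the intervals outside and in genes overlapped almost completely, while the MTA and L1MdA intervals lay above those of B1_Mm. For L1MdA this rests on uncertain places, since only 7 of its 38 sites between the primers outside genes had no other place. Elsewhere the values differed more. In B2_Mm1a it was 0.0124% outside genes and 0.0207% in them (26 of 125338, 0.0142 to 0.0304), and in 1 of the L1MdTf amplicons 10 of 116490 (0.00858%, 0.00466 to 0.0158) and 9 of 49698 (0.0181%, 0.00953 to 0.0344), again with overlapping intervals. The LINE-1 element L1MdGf had 8 of 167537 listed outside genes (0.00478%, 0.00242 to 0.00942), as low as the short elements. A listed base can lie in predicted loci of more than 1 amplicon and is then counted in each, so these shares are not independent. By the best pair, only 2 sites outside genes were placed between the L1MdGf primers and 1 between those of B2_Mm1a. The number of loci that were transcribed or read is unknown, so these shares are of genomic cytosines and not of measured ones.

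A few positions between the primers recurred. In B1_Mm, 6 of the 13 sites lay at -38, a C in 91.1% of loci, and 9 more sites in genes lay there. In L1MdA 6 lay at -82, although this position falls under the nearer p5 primer match in most predicted loci, so its place is uncertain. Another 5 L1MdA sites lay at -33, where 0.487% of loci had a C and 78.3% an A. The commonest converted context there matches the end of the L1MdGf p5 primer except at the listed base, so this place is uncertain too. Of the 61 L1MdA loci outside genes with a C at -33, 6 were listed (9.84%, 4.59 to 19.8). In MTA 5 lay at -51 (C in 63.9% of loci), with 5 of 3920 such loci listed (0.128%, 0.0545 to 0.298). In B2_Mm1t 4 lay at -45 (C in 83.4%).

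Many of the sites between the primers lay where most copies of the repeat have another base. C was the commonest base at 44 of the 135 (32.6%, 25.3 to 40.9), G at 42 (31.1%, 23.9 to 39.4), A at 36 (26.7%, 19.9 to 34.7) and T at 13 (9.63%, 5.71 to 15.8). Over all 1881573 cytosines between the primers of loci outside genes, 86.0% lay in positions where C was the commonest base. The contrast held within single repeats. It was 15 of 38 sites in L1MdA against 92.5% of its cytosines, 10 of 26 in MTA against 76.5%, and 7 of 13 in B1_Mm against 88.6%. For the 7 sites in each of the 2 L1MdTf amplicons, 1 and 1 lay at such positions, against 99.1% and 77.5% of cytosines. RLTR10 was an exception, since only 4.89% of its cytosines lay at such positions and 0 of its 6 sites did. Positions were aligned without gaps, counted from the RT primer, so an insertion or deletion in a copy shifts its bases. How far such shifts, or alleles of these cells that differ from the reference, bear on this was not tested.

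**Figure D4:**
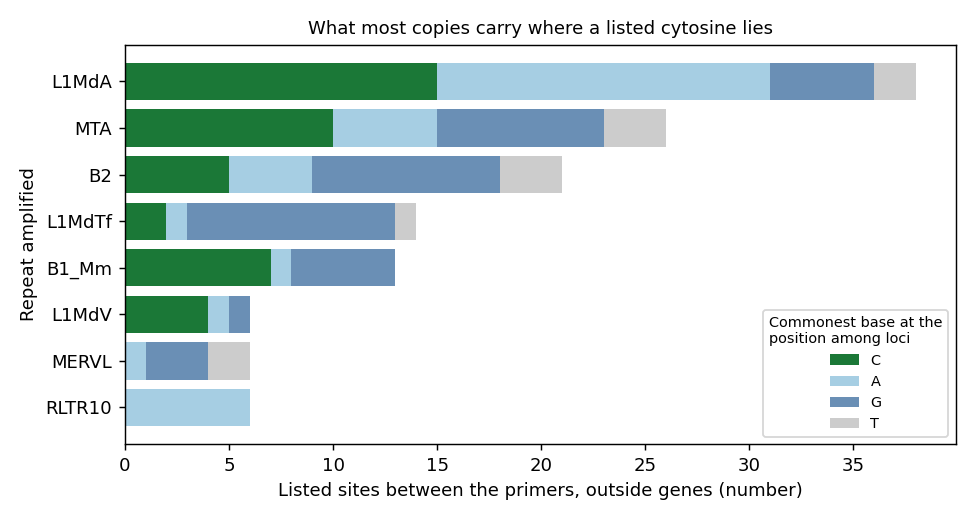
Number of listed sites between the primers outside genes for 8 repeats, coloured by the base that most predicted loci of the amplicon carry at the site's position. C was the commonest base for 15 of 38 L1MdA, 10 of 26 MTA and 0 of 6 RLTR10 sites.

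The bases after the cytosine also depended on the place. Of all intergenic sites 252 were followed by T (45.5%), 129 by A, 105 by C and 68 by G (12.3%, 9.80 to 15.3). Of the other cytosines within 60 nt, 2062 of 14759 were followed by G (13.4 to 14.5%). In the RT primer G followed 2 of 181 sites, and opposite the random bases 18 of 187 (9.63%, 6.18 to 14.7). Between the primers G followed 36 of 135 (26.7%, 19.9 to 34.7), against 7.82% (6.97 to 8.76) of other cytosines within 60 nt of them, so these intervals lie apart. The share was 7 of 44 (15.9%, 7.93 to 29.4) where C was the commonest base and 29 of 91 (31.9%, 23.2 to 42.0) elsewhere.

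The letters CNGGG, the G-rich setting in which NSUN2 is known to act on messenger RNA, were searched on the listed strand. They began at 10 intergenic sites, all between the primers (7.41%, 4.07 to 13.1, against 1.95%, 1.54 to 2.47, of other cytosines within 60 nt). Over all intergenic sites the share was 1.81% (0.983 to 3.29), beside 14 of 538 sites in genes (2.60%, 1.56 to 4.32). Of the 10 intergenic sites, 7 were in B1_Mm, 2 in L1MdTf and 1 in L1MdA, and 6 of the B1_Mm sites were the copies of the single position -38. The letters CTCCA, known from NSUN6 targets, began at 0 of the 554 sites, which allows a share of up to 0.689% (upper Wilson bound). Of the other cytosines within 60 nt 8 of 14759 did (0.0542%), so 0 sites is no result about the members. A match of letters is a description and shows no enzyme. These 4 copies of the B1 position are shown to set the bases around the same C side by side, and those of chromosomes 4 and 11 are identical: chr4:22828216-22828236 on the plus strand, 80993 nt from Gm24078, and sites at positions 24270126 of chromosome 7 (plus strand, 294 nt from Zfp93), 59479588 of chromosome 11 (minus strand, 2385 nt from Gm12262) and 37889609 of chromosome 15 (plus strand, 3386 nt from Gm35019).
B1_Mm, chromosome 4: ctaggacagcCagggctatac
B1_Mm, chromosome 7: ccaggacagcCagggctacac
B1_Mm, chromosome 11: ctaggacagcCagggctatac
B1_Mm, chromosome 15: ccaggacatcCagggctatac

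The plus strand of the reference held 331 of the intergenic sites (59.7%, 55.6 to 63.8). The share was 66.9% (59.7 to 73.3) in the RT primer, 63.1% (56.0 to 69.7) opposite the random bases and 61.3% (43.8 to 76.3) in the p5 primer. Between the primers 59 of 135 sites were on the plus strand (43.7%, 35.6 to 52.1). By repeat the share was 69.9% (62.5 to 76.3) in IAPEz-int, 58.4% (52.0 to 64.6) in B2 and 48.4% (36.6 to 60.4) in L1MdA. The number of window copies moved with place as well, from a median of 46 in the RT primer to 1 between the primers and opposite the random bases, and its part in the strand share was not tested.

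The sites lay at all distances from genes. The nearest gene body was 55 to 413618 nt away, with a median of 13260 nt. Within 1 kb lay 21 sites, within 10 kb 240 and within 100 kb 524. B2 sites were nearest, with a median of 5776 nt, and IAPEz-int (20608 nt), L1MdA (21730 nt) and MTA (18220 nt) lay farther away. The site lay upstream of its nearest gene in 274 cases and downstream in 280, and on the gene's strand in 265. The nearest gene was protein coding for 207 sites, a processed pseudogene for 146 and a lincRNA for 68. The definition thus rests on the annotation at its edge: 3 sites lay 55 nt from the lincRNA Gm47430 (chromosome 9, position 78522212, minus strand, B2 at +4), 166 nt from Gm48374 (chromosome 13, 8872271, plus strand, B2 at +2) and 175 nt from the microRNA gene Gm23189 (chromosome 1, 67973952, plus strand, MTA). Just inside, the sites nearest to a gene end lay 172 nt within Gm43511, 229 nt within Gm47103 and 259 nt within Gm39090. Farthest from any gene was a B2 site at +1 on chromosome X (position 65522731, plus strand), 413618 nt from the pseudogene Gm14668, followed by an MTA site between the primers on chromosome 4 (50622332, plus strand), 335455 nt from Gm25485.

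**Figure D5:**
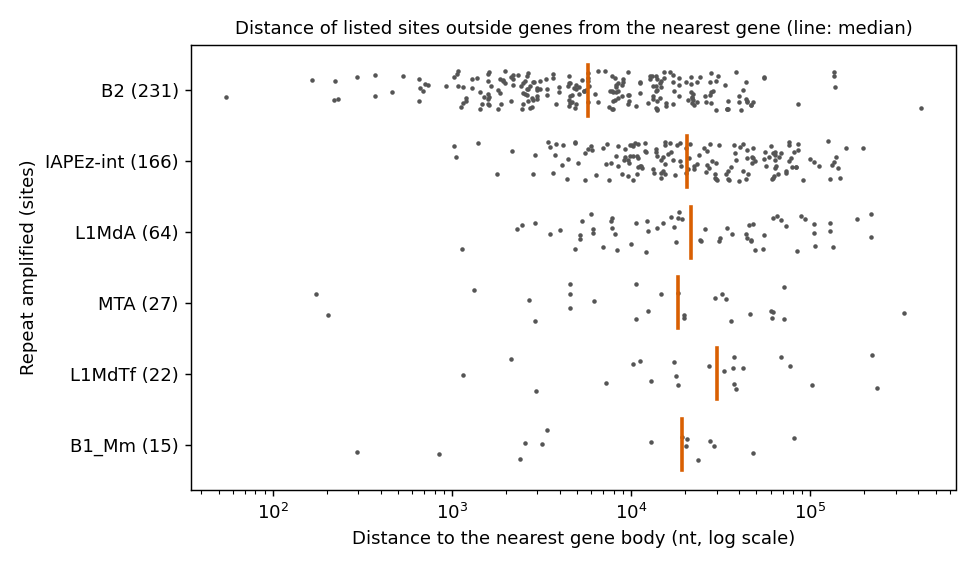
Distance of each listed site outside genes from the nearest gene body (nt, log scale), for the 6 repeats with the most sites; each point is a site and the line marks the median. B2 sites had a median of 5776 nt, below the 20608 nt of IAPEz-int and the 21730 nt of L1MdA.

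Joining neighbours of 1 strand at most 200 nt apart gave 470 runs. A single site made up 393 runs, 70 held 2 sites and 7 held 3. The 7 longest were all in B2 and spanned a few bases each, such as those 2966 nt from AA386476 on chromosome 8 and 7844 nt from Cys1 on chromosome 12, both inside an RT primer by the best pair and thus among the bases at +2, +4 and +7 of B2_Mm2. By chromosome the number of intergenic sites ran from 6 on Y, where all 6 listed sites were intergenic, to 40 on chromosome 6. Per 10 Mb of sequence outside genes this was 0.743 on Y to 6.04 on chromosome 15. Outside genes lay 54.0% of all bases and 63.9% of soft-masked bases of these chromosomes.

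Some sites between the primers in a window found once are named by position, although the window reaches beyond the amplicon and the L1MdA places depend on the pair taken. In MTA the first by chromosome order lay on chromosome 1 at 6325398 (minus strand, 33820 nt from Alkal1), 67973952 and 100690241 (minus strand, 36085 nt from Gm29334). In B2_Mm1t they lay on chromosome 1 at 38913549 (minus strand, 4833 nt from Gm6621), 156478810 (plus strand, 4479 nt from Soat1) and 181875627 (minus strand, 20757 nt from Enah). In L1MdA they lay at 103001662 of chromosome 1 (plus strand, 48114 nt from Gm22034), 38745476 of chromosome 3 and 99434789 of chromosome 4. In MERVL, a retrovirus-derived element active in early embryos, they lay at 39879128 of chromosome 3 (plus strand, 51717 nt from Gm42785) and at 3938308 and 132891185 of chromosome 2 (both minus strand, the latter 10294 nt from Lrrn4). The contexts of 1 of these sites per repeat are given so that the cytosine, in capitals, can be seen.
MTA near Alkal1: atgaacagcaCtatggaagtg
B2_Mm1t near Soat1: aagagcatccCactgctcttc
L1MdA near Gm22034: aaacacaatcCaacaggtaga
MERVL near Lrrn4: gtgtccttgaCgagaatcttc

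The 5 sites with no primer pair were all on the plus strand and all in a window found once. They lay on chromosome 6 at 44098067 and 44098071, 14712 and 14716 nt from Gm35216, and at 47980627, on chromosome 12 at 68555180, and on X at 57622238.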

How the data were processed

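caRNA from 3 WT and 3 Tet2 KO mES cell libraries was treated with ultrafast bisulfite and amplified with primers for 20 repeat amplicons. The authors trimmed reads with cutadapt 4.0 (per the labels and methods), took the 7-base identifier from the second read, aligned to mm10 with HISAT-3n in a strand-aware C-to-T mode, discarded soft-clipped and poorly converted reads and called sites by a binomial P value. They deposited 1 list of positions, with 0 columns of values per library. The deposited columns hold positions and strands, and the score column is empty. Whether libraries were pooled, and whether genotypes were compared before listing, is not given in the sources used here.

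Gene bodies came from GENCODE vM21 (comprehensive), and bases and soft-masking from GRCm38. Primer sequences came from the study's supplementary oligonucleotide list, without their random bases. The RT and p5 stretches were matched to the site's strand with C read as T, without gaps and with at most 5 mismatches within 300 nt. The planned placement used the best RT match. Placement by a primer pair whose span of at most 300 nt held the site was added after the positions had been seen. Predicted loci had both primers within 300 nt and at most 2 mismatches in each, and lay outside genes by their middle base. Window copies were counted for 75 nt on each side of a site with C read as T, on both strands. Shares have 95% Wilson intervals, and no test was made. The sites named were, per amplicon, the commonest context and the first unique sites between primers in chromosome order (chromosome 18 left out of sequences), the 3 nearest to and farthest from genes, the nearest to a gene end within genes, and the longest runs. Recurring positions, the CNGGG sites and the sites without a primer pair were chosen after their values were seen. The members and lists were chosen with earlier results of these data known. On simulated data, 120 of 120 planted primer matches and 100 of 100 planted window copies were found. The scripts ran under Python 3.11.15 with numba 0.67.0, numpy 2.4.6, pandas 2.3.3 and scipy 1.17.1. The depth of the libraries is not known from the list.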

Additional observations from a re-analysis of the deposited data

How the results depend on the processing

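No paired analysis was possible because no listed site has a value in single libraries, and leaving out replicates was not possible for the same reason. Of 32 values under alternatives, 17 stayed within the interval of the value reported. The intergenic share was 57.6% with protein-coding genes only, 36.7% when sites within 5 kb of a gene also counted as genic and 54.6% with the first site of each run. An RT primer match was found for 100.0% of sites with 7 mismatches allowed. Without the second IAPEz-int amplicon, placement by the best RT primer match alone (33.9% inside an RT primer and 21.7% between the primers with it) put 6.94% of sites inside an RT primer and 30.6% between the primers, with 55.3% on the plus strand and 17.2% before a G. With 1 site for each context, 20.0% were followed by G. The share with a window found once was 31.9% with 50 nt on each side and 64.4% with unconverted sequence. Alternatives chosen after seeing the data kept only sites between the primers, which gave 43.7% on the plus strand, 26.7% followed by G and 74.1% with a window found once, or the first site of each run, which gave 27.0% opposite the random bases. In each case another set of sites or windows was counted, by construction. The pair placement, fewer mismatches and the basic annotation, also chosen or run this way, left the shares within their intervals. Since depth and levels are unknown, a cytosine that is not listed may be unread, unmethylated or below the authors' threshold.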
